A study of Mus musculus with 15 samples.

Results

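Bile duct cells (cholangiocytes) line the ducts that carry bile out of the liver. The 9 genes described here are textbook genes of these cells, listed for their known role and not by a threshold on a value, though with earlier results of these data known, out of 21887 protein-coding genes. They are Sox9, a transcription factor of biliary progenitors and duct cells, and Krt19 and Krt7, keratins of the duct cell skeleton. Epcam, Prom1 (CD133), Cd24a and Muc1 encode cell surface proteins. Spp1 encodes osteopontin, a secreted matrix protein, and Cftr encodes the chloride channel through which duct cells add fluid to bile. All 9 were found in the gene table by symbol. The libraries were made from whole liver, in which hepatocytes outnumber duct cells, so most cells sampled were not of the type that uses these genes. Which cells carried a called mark was not tested.

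Trimethylation of histone H3 at lysine 4 (H3K4me3) is found at the promoters of active genes and of genes held ready for use. Trimethylation at lysine 27 (H3K27me3) is laid down by Polycomb repressive complex 2 and spreads over developmental and lineage genes that a cell keeps silent. Promoters with both marks are often called bivalent. Hepatocytes and duct cells arise from a common embryonic progenitor, and hepatocytes can switch on duct genes such as Sox9 after injury.

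Histone marks were mapped by ChIP-seq on nucleosomes cut with micrococcal nuclease from liver of C57Bl/6 mice aged 8 to 12 weeks, on a normal diet. Livers came from wild type (WT) animals or from Uhrf1hepKO (KO) animals, named for the loss of Uhrf1, a protein that guides DNA methylation after replication, in hepatocytes. The labels name neither the driver of the deletion nor how regeneration was started. Of 15 samples, 12 had lists of enriched regions and 3 were inputs. H3K4me3 was mapped in 2 libraries of each genotype, of which the first carried no round in the labels and the second was from round 2. For H3K27me3 there were WT replicate 1 and 1 KO library, both with no round, and 4 WT libraries of round 3, at 0, 30, 40 and 96 h of regeneration. The 0 h library also served as WT replicate 2. For H3K9me3, a mark of silent repeats, there was 1 WT and 1 KO library, both of round 2. Whether replicates came from separate mice is not stated, and neither is the number of mice in a library.

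The authors' lists held 72177 and 25714 H3K4me3 peaks in WT replicates 1 and 2, and 73431 and 27006 in KO. The H3K27me3 lists held 10486 to 13964 islands (long regions of enrichment) at a false discovery rate of 0.01 or below, with 12764569 to 21738935 ChIP reads inside them. The antibody tag of both round 2 H3K4me3 libraries names H3K9me3, against their titles. Of their peak length, 95.8% (WT) and 92.1% (KO) lay in replicate 1 H3K4me3 peaks of the same genotype, and 0.476% and 0.447% in H3K9me3 peaks, so they were used as titled. As a check of the tissue, 14 of 16 hepatocyte genes (Alb and Apob among them) had H3K4me3 at the start in all 4 libraries, and 0 of 16 lay in an H3K27me3 island in any of the 6. A start counted as marked when a region covered at least 1 bp within 1 kb of it. The most upstream start in the RefSeq promoter table was used for 6 of the genes. For the other 3, which were not in that table, it was the gene end with more H3K4me3 (Sox9, Cd24a) or, where neither end had any, both ends (Krt19). Fold means the authors' enrichment of a region over control.

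The promoters of 5 of the genes are shown here because they differ widely in CpG content and in the marks found at them. Each runs 5′ to 3′ on the gene's own strand from 250 bases before the RefSeq start to 50 bases from it (build GRCm38.p6), and capitals mark CpG, the dinucleotide that carries DNA methylation. Muc1 lies at chr3:89228806-89229105 (plus strand), Prom1 at chr5:44101687-44101986 (minus), Krt7 at chr15:101412153-101412452 (plus), Cftr at chr6:18170437-18170736 (plus) and Spp1 at chr5:104434861-104435160 (plus).
Muc1: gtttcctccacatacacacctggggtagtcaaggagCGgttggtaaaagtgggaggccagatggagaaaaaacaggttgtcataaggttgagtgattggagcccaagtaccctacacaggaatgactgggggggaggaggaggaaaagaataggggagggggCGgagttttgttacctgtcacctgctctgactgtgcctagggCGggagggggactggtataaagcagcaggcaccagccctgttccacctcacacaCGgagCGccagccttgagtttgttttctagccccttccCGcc
Prom1: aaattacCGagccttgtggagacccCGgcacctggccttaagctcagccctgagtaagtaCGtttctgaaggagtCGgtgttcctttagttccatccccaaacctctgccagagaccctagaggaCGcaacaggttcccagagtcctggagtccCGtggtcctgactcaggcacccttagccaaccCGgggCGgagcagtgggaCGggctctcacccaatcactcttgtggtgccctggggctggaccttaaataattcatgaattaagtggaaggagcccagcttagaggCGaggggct
Krt7: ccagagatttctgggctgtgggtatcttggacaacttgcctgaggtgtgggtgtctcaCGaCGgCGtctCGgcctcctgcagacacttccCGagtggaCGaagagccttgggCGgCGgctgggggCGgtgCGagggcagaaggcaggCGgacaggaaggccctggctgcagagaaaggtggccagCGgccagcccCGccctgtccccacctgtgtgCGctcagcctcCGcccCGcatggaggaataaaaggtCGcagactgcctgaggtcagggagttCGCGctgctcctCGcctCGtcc
Cftr: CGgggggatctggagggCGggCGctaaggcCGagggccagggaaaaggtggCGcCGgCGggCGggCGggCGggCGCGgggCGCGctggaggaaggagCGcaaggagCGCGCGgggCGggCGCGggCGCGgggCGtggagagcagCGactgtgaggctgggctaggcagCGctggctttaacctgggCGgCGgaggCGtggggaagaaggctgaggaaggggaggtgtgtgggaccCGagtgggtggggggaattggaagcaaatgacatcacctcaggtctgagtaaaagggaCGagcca
Spp1: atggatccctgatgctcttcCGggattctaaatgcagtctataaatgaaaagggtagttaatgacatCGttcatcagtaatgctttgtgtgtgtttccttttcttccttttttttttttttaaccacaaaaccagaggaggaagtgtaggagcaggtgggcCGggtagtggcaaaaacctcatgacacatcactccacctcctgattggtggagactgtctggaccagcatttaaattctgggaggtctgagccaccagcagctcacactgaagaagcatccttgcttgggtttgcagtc
The Cftr promoter held 31 CpG and 71.3% G or C, with more CpG than 86.5% of the 17492 promoters. Krt7 held 21 CpG, Epcam 11, Prom1 10, Muc1 6 and Spp1 3. Across the table the median was 13 CpG. It was 21 where H3K4me3 was found in all 4 libraries and 3 where it was found in none. Cftr and Krt7, with the most CpG of the 6, were thus without H3K4me3, while Muc1, with 6, had it in every library. The Muc1 peaks lay almost wholly upstream of the stretch in which CpG were counted, which begins 250 bases before the start. In each library the strongest had its summit 610 to 618 bp before the start. The count of 6 therefore does not describe the DNA under the mark. Among promoters in an H3K27me3 island in all 6 libraries and with no H3K4me3, the class of Krt7, the median was 5. The letters TATAAA, searched on both strands, were found 31 bases before the Muc1 start and 211 bases before that of Spp1, and in 13.3% of all promoters.

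The 9 genes fell into several states, which the grid of calls shows. Epcam and Muc1 had H3K4me3 in all 4 libraries and H3K27me3 in 5 of 6. Sox9 had H3K4me3 in all 4 and H3K27me3 in 2. Cd24a had H3K4me3 in 3 and H3K27me3 in all 6, and Prom1 had H3K4me3 in 2 and H3K27me3 in 3. Krt19 and Krt7 had no H3K4me3 and H3K27me3 in all 6, Cftr had no H3K4me3 and H3K27me3 in 3, and Spp1 had neither mark within 1 kb of its first start. No start of the 9 was in an H3K9me3 region in either genotype, where 1.77% (WT) and 1.79% (KO) of all genes were.

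**Figure D1:**
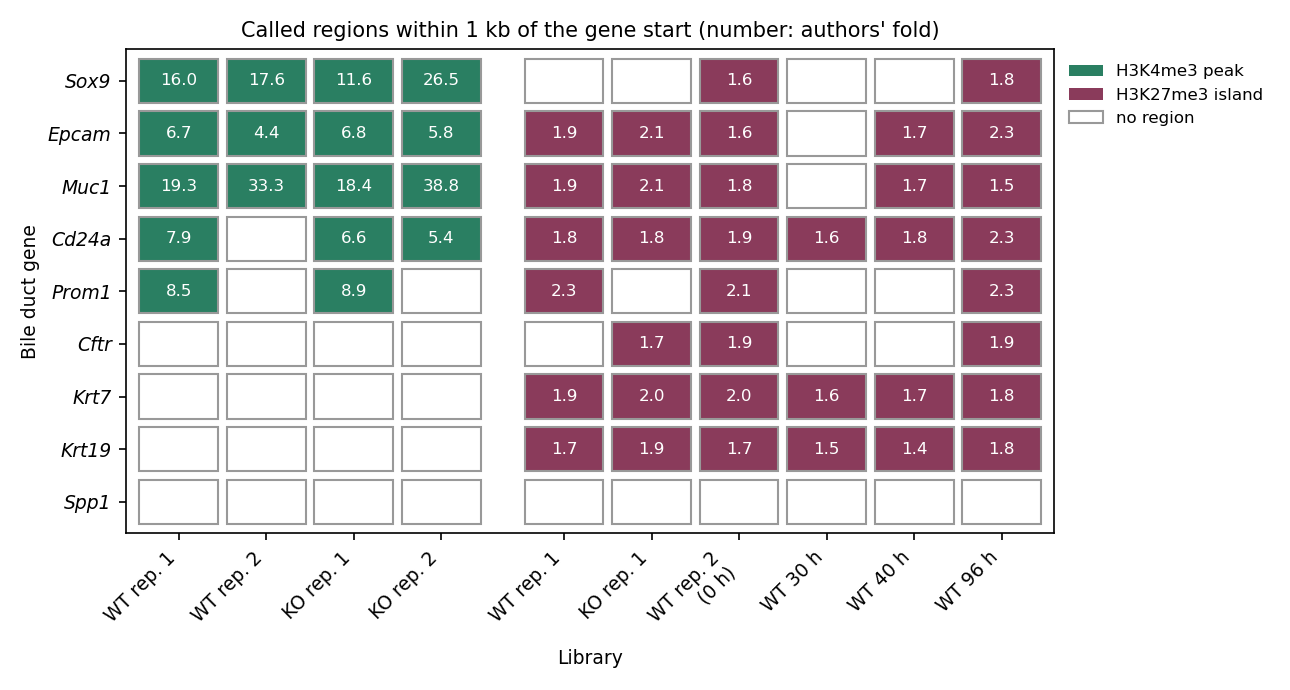
Calls at the starts of the 9 bile duct genes (rows) in the 4 H3K4me3 and 6 H3K27me3 libraries (columns). A filled cell means that a region lay within 1 kb of the start, and its number is the authors' fold (the highest where several regions did); folds are not comparable between the marks. Krt19 and Krt7 are filled in every H3K27me3 column and in no H3K4me3 column, and Spp1 is empty throughout.

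H3K4me3 was found at 5 of the 9 starts in at least 1 library, beside 63.8% of all genes. It marked 5 starts in WT replicate 1, 3 in WT replicate 2, 5 in KO replicate 1 and 4 in KO replicate 2. Of all genes, 62.3%, 55.8%, 61.4% and 58.4% were marked in the same libraries. Marked in all 4 were 3 of the 9 (Sox9, Epcam and Muc1), beside 55% of all genes. No gene of the 9 was gained in KO (marked in both KO and neither WT library; 0.114% of all genes) and none was lost (the reverse; 0.0183%). With 2 libraries against 2, no two-sided exact test can give a p below 0.333, so none is given.

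Sox9 (chr11:112782210-112787757) had the longest H3K4me3 peaks of the 9 genes. In WT replicate 1 the peak was 3007 bp long, longer than 98.3% of the peaks in its list, with a fold of 16.0. In WT replicate 2 the same stretch was called as peaks of 996 and 1362 bp, with folds of 10.3 and 17.6. The KO peaks were 2373 bp (fold 11.6) and 2649 bp (fold 26.5). In their own lists these folds were above those of 80.7% of the peaks in WT replicate 1. In WT replicate 2 it was 35.7% and 48.6%, and in KO replicates 1 and 2 it was 74.3% and 54.9%. All 4 libraries had a peak reaching from upstream of the start to between 962 and 1404 bp inside the gene. The nearest start used for another protein-coding gene, Sstr2, was 837117 bp away. Non-coding genes were not looked at.

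The keratin genes stood apart from any H3K4me3. For Krt19 (chr11:100140810-100145926), of which both ends were used, the nearest peak was 84624 to 178394 bp from the end with the lower coordinate in the 4 libraries. The nearest to the start of Krt7 (chr15:101412403-101427806) was 94922 to 95814 bp away. For Cftr (chr6:18170687-18322770) it was 138276 to 138546 bp away.

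Epcam, an adhesion protein of epithelial cells (chr17:87635979-87651127), had a peak inside the gene in every library. Its length was 799 bp in WT replicate 1, 143 bp in WT replicate 2, 802 bp in KO replicate 1 and 590 bp in KO replicate 2, with folds of 6.71, 4.41, 6.84 and 5.80. All 4 began downstream of the start, 92 to 521 bp inside the gene. These folds were above those of 52.2%, 3.17%, 55.4% and 16.2% of the peaks in their own lists.

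Muc1, a mucin that spans the apical membrane (chr3:89229056-89233381), had short peaks that lay wholly upstream of the start. In WT replicates 1 and 2 they were 455 and 360 bp long with folds of 19.3 and 33.3, and in KO replicates 1 and 2 they were 479 and 408 bp long with folds of 18.4 and 38.8. Their summits were 610, 611, 610 and 618 bp upstream of the start. WT replicate 1 had a further peak of 180 bp (fold 6.42) ending 827 bp upstream. None covered any of the gene body, and the nearest start used for another protein-coding gene, Thbs3, was 13876 bp away.

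The call at Prom1 and at Cd24a differed between replicates. Prom1, a membrane glycoprotein of progenitor cells (chr5:43993621-44102047), had a peak of 943 bp (fold 8.46) in WT replicate 1 and peaks of 923 and 349 bp (folds 8.94 and 3.95) in KO replicate 1, all inside the gene. In replicate 2 the nearest peak was 33448 bp (WT) and 33119 bp (KO) away. Such a split, a peak in both replicate 1 libraries and in neither of round 2, was seen at 3.44% of all genes. The replicate 1 lists held more peaks of lower fold (median 6.42 and 6.05, beside 18.6 and 19.9 in round 2), and the part of this in the split was not tested.

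Cd24a, a small surface glycoprotein (chr10:43579169-43584265), had a peak of 967 bp (fold 7.88) in WT replicate 1 and none nearer than 38183 bp in WT replicate 2. KO replicate 1 had peaks of 758 and 274 bp (folds 6.58 and 4.21), and KO replicate 2 had one of 146 bp (fold 5.44), with no shorter peak in its list. The 967 and 758 bp peaks lay upstream of the gene, and the 146 bp peak began 48 bp inside it. A peak in every library but WT replicate 2 was found at 2.03% of all genes.

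Spp1 (chr5:104435111-104441053) was unmarked in every library under the rule used, as were 19% of all genes over the 10 libraries. The promoter table gives it a second start 1081 bp downstream, and there both replicate 1 libraries had a peak. In WT it was 692 bp long (fold 11.1) and in KO 408 bp long (fold 8.16). In replicate 2 the nearest peak was 24179 bp (WT) and 24195 bp (KO) away. No H3K27me3 island lay within 12890 bp of the gene's start at 96 h, or within 91111 bp in the other 5 libraries.

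**Figure D2:**
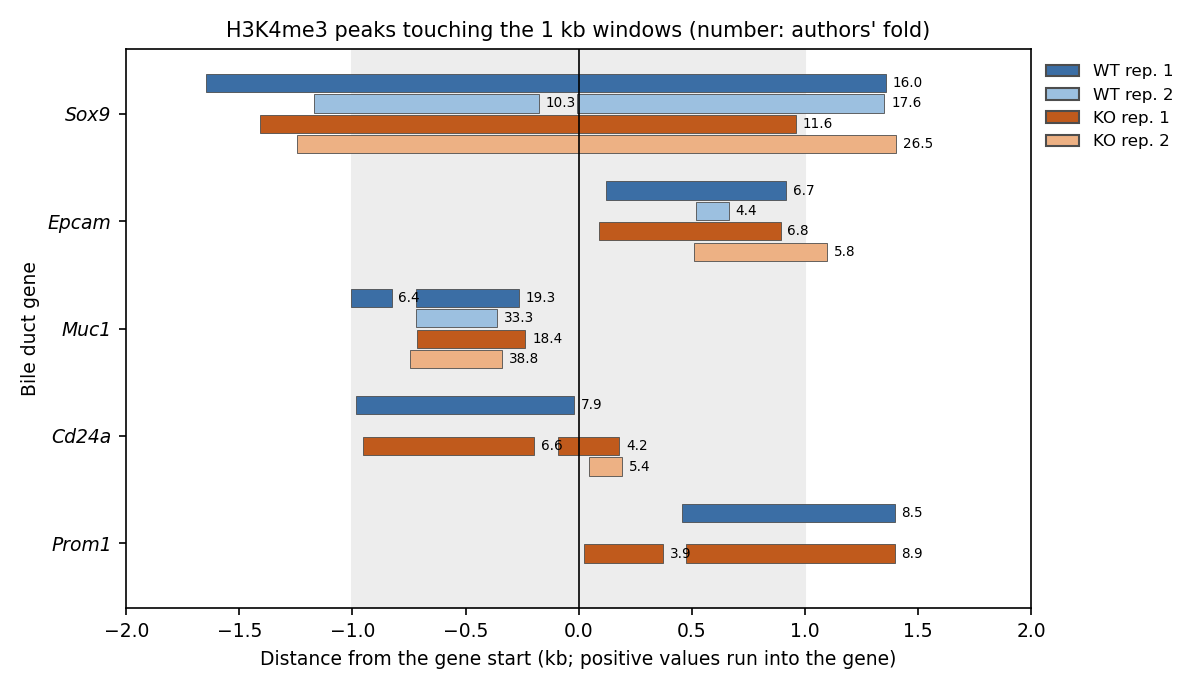
H3K4me3 peaks at the 5 bile duct genes with a peak in the window, in kb from the gene start, 1 bar per peak and 1 colour per library, with the authors' fold beside each bar. The grey band is the window of 1 kb either side. Each library has a Sox9 bar across the start (WT replicate 2 also has 1 that ends before it), the Muc1 bars all end before it, and the Epcam and Prom1 bars all begin after it.

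H3K27me3 islands lay over most of the duct gene starts in resting liver. In WT replicate 1, 6 of 9 starts lay in an island, beside 21.5% of all genes, and in the KO library 6 of 9, beside 22.2%. At 0 h, 8 of 9 did, beside 26.6%. Spp1 was the gene without an island. In any of the 6 libraries it was 8 of 9 (31.8% of all genes), and in all 6 libraries 3 of 9, namely Krt19, Krt7 and Cd24a (10%). A whole-liver library cannot tell a mark carried by more cells from more of the mark in each cell, nor whether both marks at a start sit in the same cells. The read counts behind each fold give exact 95% intervals from the binomial distribution (Clopper-Pearson), which cover counting error only.

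The islands over the keratin genes were long and shared with their neighbours. The island over Krt7 was 150 kb in WT replicate 1 (fold 1.85), 347 kb at 0 h (fold 2.03) and 161 kb in KO (fold 1.99), and held 6, 12 and 7 protein-coding genes. The island over Krt19 was 44 kb in WT replicate 1 (fold 1.72), 310 kb at 0 h (fold 1.72) and 290 kb in KO (fold 1.86), and held 3, 17 and 15 genes. Krt7 and Krt19 lie in the type II and type I keratin clusters, whose members are mostly silent outside skin and other epithelia. The calls at Krt7 in all 6 libraries, and those at Krt19 in these 3 and at 30 h, are thus on islands shared with other genes. At 40 and 96 h the Krt19 island held 1 gene. The 10 calls of Krt7 were found at 1325 other genes (6.05%), Krt19 among them.

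The other islands were shorter and, with the exception of Muc1, held 1 protein-coding gene. Over Cd24a they measured 41 kb (fold 1.82) in WT replicate 1, 40 kb (fold 1.94) at 0 h and 38 kb (fold 1.83) in KO. Over Epcam they measured 27 kb (fold 1.92), 29 kb (fold 1.63) and 30 kb (fold 2.07) in the same order. Over Muc1 they measured 19 kb (fold 1.86), 28 kb (fold 1.82) and 22 kb (fold 2.09), each with 3 genes. At each of these 3 genes the start lay in an island in both genotypes.

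Between genotypes, 1 of the 9 genes was lost in KO (an island in both WT libraries and none in KO), beside 1.32% of all genes. The 6 genes with an island in WT replicate 1 all had one at 0 h too. Counted over starts with an island in both WT libraries, the loss was 1 of 6, beside 6.78% for all genes. The gene lost was Prom1. In both WT libraries its start lay in an island with the same bounds, chr5:44095001-44103000, 8 kb long, that reached from 1264 bp upstream to 6735 bp inside the gene. WT replicate 1 had 370 ChIP and 275 control reads there, a fold of 2.34 (95% interval 1.99 to 2.74), and WT replicate 2 had 409 and 427 reads, a fold of 2.14 (1.86 to 2.46). In KO the nearest island was 167265 bp away. The island was also short: at 0 h only 2.21% of marked starts lay in a shorter one. The KO list gives no reads where no island was called, so how far KO lay below the calling threshold is not known. Its other annotated start, 6968 bp downstream, had the same H3K27me3 calls. The H3K4me3 call at Prom1 was the same in both genotypes in replicate 1 and in replicate 2. The loss rests on 1 KO library.

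None of the 9 was gained in KO (an island in KO and in neither WT library), beside 0.914% of all genes. Sox9 and Cftr were called in 1 of the 2 WT libraries only. Cftr was in an island at 0 h (7 kb, fold 1.89, interval 1.63 to 2.19) and in KO (8 kb, fold 1.69, interval 1.45 to 1.97), and 63687 bp from the nearest one in WT replicate 1. Sox9 was in an island of 33 kb at 0 h (fold 1.60, interval 1.49 to 1.72), and in KO an island came no nearer than 3210 bp from the start. In WT replicate 1 the nearest was 123791 bp away. Of all starts in an island at 0 h, 26.9% had none in WT replicate 1. WT replicate 1 and KO, neither of which has a round in the labels, share a control library, with equal control reads in all 414 islands of identical bounds. Set against WT replicate 1 alone, 1 of 9 was lost (Prom1, beside 2.34% of all genes) and 1 gained (Cftr, beside 3.03%).

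**Figure D3:**
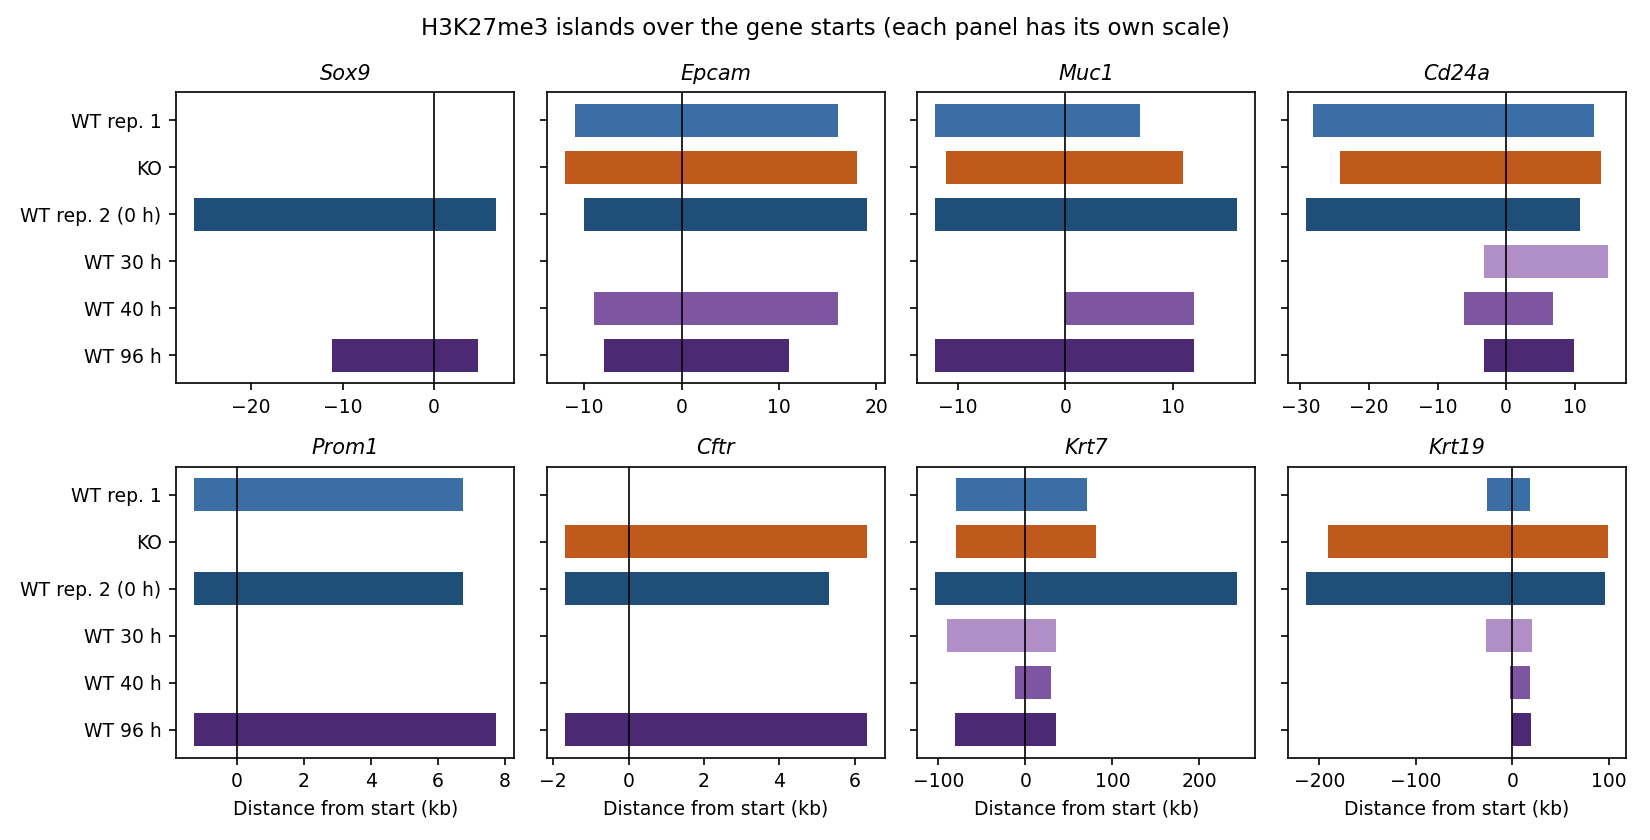
Extent of the H3K27me3 island over the start of each of the 8 bile duct genes that had one, in kb from the start (vertical line), positive into the gene, 1 bar per library; each panel has its own scale. For Krt19 the line is the gene end with the lower coordinate. The Prom1 panel has no bar in KO, at 30 h or at 40 h, and the Krt7 and Krt19 bars are longest at 0 h.

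In regenerating WT liver the number of duct gene starts in an H3K27me3 island was 8 of 9 at 0 h, 3 at 30 h, 5 at 40 h and 8 at 96 h. All genes gave 26.6%, 16.7%, 16.2% and 23.8%. The 8 genes at 96 h were the 8 of 0 h. From 0 to 30 h, 5 of 9 were lost, beside 11.5% of all genes, and none was gained (1.55%). Of the starts marked at 0 h, 3 of 8 were still marked at 30 h, beside 56.9% over all genes. At 40 h it was 5 of 8 (54.3%) and at 96 h 8 of 8 (79.4%). With 1 library per time there is no replicate check of any of these steps.

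The libraries of 30 and 40 h also had less signal throughout. Their reads in islands numbered 15168562 and 12764569, beside 21738935 at 0 h and 21374188 at 96 h. The ratio of ChIP to control library size was 0.369 and 0.342, beside 0.447 and 0.438. The median fold of an island was 1.45 at both times, beside 1.58 at 0 h and 1.56 at 96 h. The lists of 30, 40 and 96 h were made with 1 control library, with equal control reads in all 221 islands of identical bounds at 30 and 96 h, and 0 h with another (1 of 133 islands with equal reads at 0 and 30 h). Their part in the lower counts was not tested. With every list cut to an equal covered length by dropping the islands of lowest fold, the same 5 genes were lost from 0 to 30 h. Such a cut only removes islands and cannot add a call at 30 h, so it does not test the lower signal. With WT replicate 1 in place of 0 h the number lost was 3 (Epcam, Muc1 and Prom1), beside 7.46% of all genes. With islands of at least 2-fold it was 2 (Krt7 and Prom1), beside 5.87%. Under that limit 5.92% of all genes were marked at 0 h and 0.105% at 30 h. Nearly every marked start thus counted as lost, and the limit does not test the lower signal either. Krt7 still lay in an island at 30 h, of fold 1.64.

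**Figure D4:**
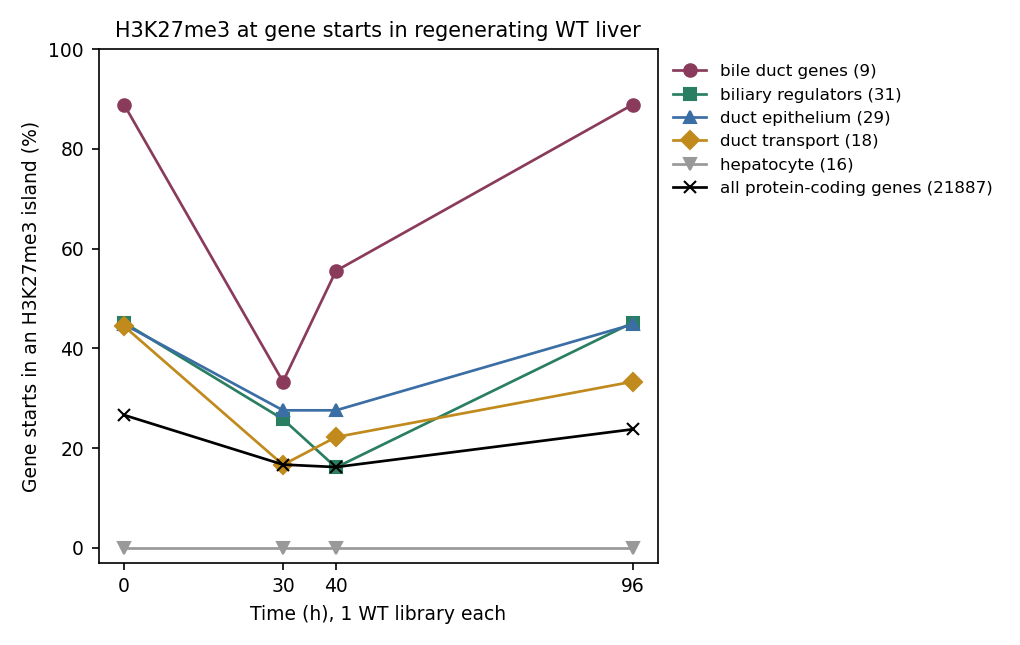
Share of gene starts in an H3K27me3 island at 0, 30, 40 and 96 h, 1 WT library each, for the 9 bile duct genes, 3 wider bile duct lists, hepatocyte genes and all genes. The 9 genes go from 8 marked to 3, 5 and 8, all genes from 26.6% to 16.7%, 16.2% and 23.8%, and no hepatocyte gene of 16 is marked at any time.

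Krt19, Krt7 and Cd24a, 3 of the 8 marked at 0 h, were in an island at all 4 times, as were 40.3% of all starts marked at 0 h. Their islands were shorter at 30, 40 and 96 h than at 0 h, but the resting lengths differed between the WT libraries: in WT replicate 1 they were 150 kb over Krt7, 44 kb over Krt19 and 41 kb over Cd24a. The island over Krt7 measured 347 kb at 0 h, 125 kb at 30 h, 42 kb at 40 h and 115 kb at 96 h, with folds of 2.03, 1.64, 1.65 and 1.84. The island over Krt19 measured 310, 47, 21 and 19 kb, with folds of 1.72, 1.46, 1.44 and 1.75, and was longer at 30 h than in WT replicate 1. The island over Cd24a measured 40, 18, 13 and 13 kb, with folds of 1.94, 1.58, 1.80 and 2.31. Only the Krt7 island was longer at 96 h than at 40 h.

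Epcam and Muc1 were out of an island at 30 h alone. For Epcam the loss was one of position: an island of 20 kb (fold 1.79) covered 86.7% of the gene at 30 h but began 2022 bp inside it. At 40 h a 25 kb island (fold 1.73, interval 1.59 to 1.89) covered the start again, and at 96 h one of 19 kb (fold 2.29, interval 2.10 to 2.50). At Muc1 the nearest island at 30 h was 93945 bp away. The 40 h island over Muc1 was 12 kb (fold 1.69) and began 55 bp upstream of the start, and the 96 h island was 24 kb (fold 1.46, interval 1.34 to 1.59). The upstream stretch with the Muc1 H3K4me3 peaks was thus outside the island at 40 h and inside it at 0 and 96 h. From 30 to 40 h these 2 of the 9 were gained, beside 4.17% of all genes, and none was lost (4.66%).

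Sox9, Cftr and Prom1 were out of an island at both 30 and 40 h and in one at 96 h. Among starts marked at 0 and 96 h, 22.4% were unmarked at both times between. At Sox9 the island was 33 kb at 0 h and 16 kb at 96 h, with folds of 1.60 and 1.80 (interval 1.62 to 2.00), and none lay within 102210 bp at 30 h or 107791 bp at 40 h. At Cftr it was 7 kb and 8 kb, with folds of 1.89 and 1.87 and the same upstream edge, 1686 bp before the start. At Prom1 it was 8 kb and 9 kb, with folds of 2.14 and 2.32 (interval 2.05 to 2.63) and the same upstream edge, 1264 bp before the start. At 30 and 40 h the nearest island to the Prom1 start was 169265 bp away. From 40 to 96 h these 3 of the 9 were gained, beside 9.7% of all genes. None was lost from 40 to 96 h (2.12%) or between 0 and 96 h (5.48%), and none was gained between 0 and 96 h (2.63%).

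The 3 genes that kept an island at 30 h were those with the 3 longest islands at 0 h. By length at 0 h the order was Krt7 (347 kb), Krt19 (310 kb), Cd24a (40 kb), Sox9 (33 kb), Epcam (29 kb), Muc1 (28 kb), Prom1 (8 kb) and Cftr (7 kb). Over all genes, a comparison added after these values were seen, the share kept was higher for longer islands, and this was not limited to regeneration. Of starts in islands of up to 10 kb at 0 h, 20.7% were marked at 30 h (exact 95% interval 16.4 to 25.4, n = 334). For islands over 10 to 30 kb it was 44.2% (41.9 to 46.5, n = 1830), for those over 30 to 100 kb 61.8% (59.8 to 63.7, n = 2414) and for those over 100 kb 75.7% (73.2 to 78.1, n = 1252). Starts in 1 island share its fate, so these intervals are too narrow. In WT replicate 1, a resting liver, the shares of the same starts in an island were 40.4%, 61.6%, 76.9% and 91.3% in the same order. They went from 41.3% to 91.9% in KO and from 67.1% to 91.8% at 96 h. The median length at 0 h was 57 kb for starts that kept an island at 30 h and 30 kb for those that did not.

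**Figure D5:**
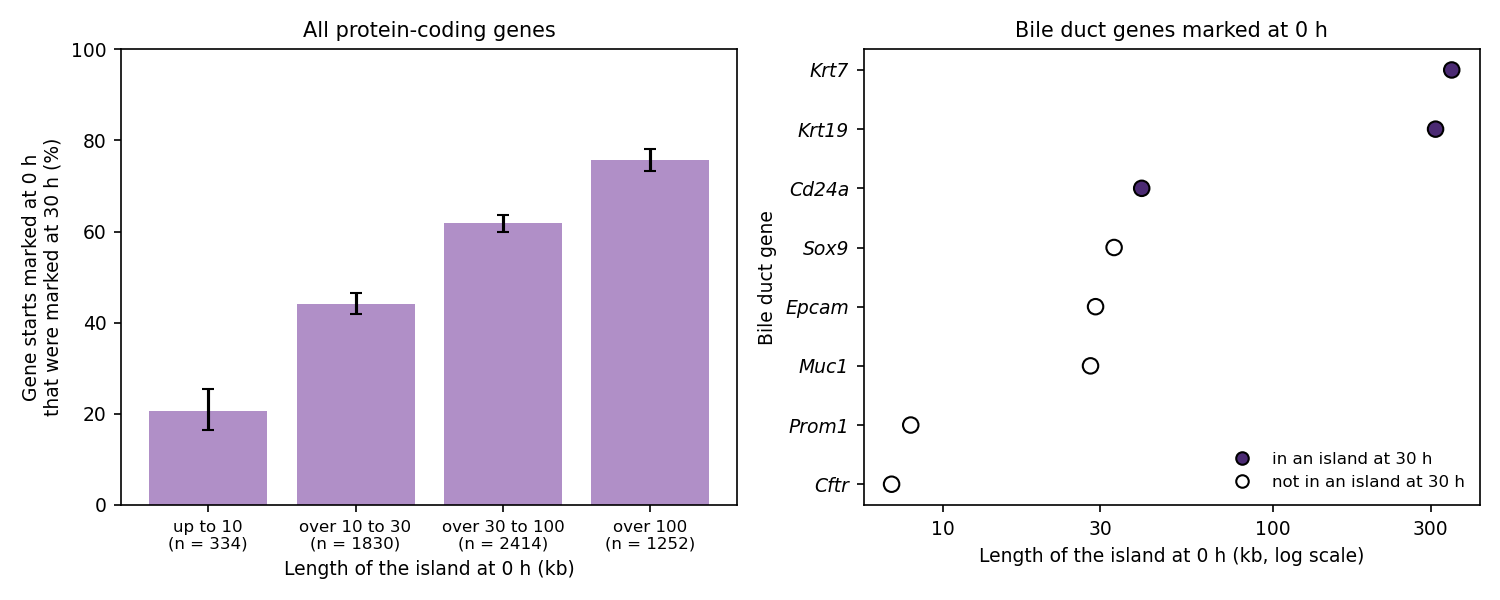
Left, share of all gene starts in an H3K27me3 island at 0 h that were also in one at 30 h, by length of the 0 h island, with exact 95% binomial intervals. Right, length of the 0 h island (log scale) over each of the 8 bile duct genes marked at 0 h, filled where the start was in an island at 30 h. The bars go from 20.7% to 75.7%, and the filled points are the 3 longest islands, over Krt7, Krt19 and Cd24a.

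Both marks at 1 start, a peak in both H3K4me3 libraries of a genotype together with an island, were found at 2 of 9 genes in WT (Epcam and Muc1, with H3K27me3 of replicate 1), beside 5.42% of all genes. In KO it was 3 of 9, with Cd24a added, beside 6.49%. With WT replicate 2 of H3K27me3 it was also 3 of 9, then with Sox9 and without Cd24a, beside 7.27%. The Epcam call in WT rests in replicate 2 on a peak of 143 bp (fold 4.41), and no peak in that list was shorter. Cd24a entered in KO through its 146 bp peak in KO replicate 2, since its H3K27me3 call was the same in all 6 libraries. Sox9 entered through the 33 kb island of the 0 h library. Set beside the baseline H3K4me3 of WT, H3K27me3 gave both marks at none of the 9 at 30 h (3.03% of all genes), at 2 at 40 h (3%) and at 3 at 96 h (6.29%). H3K4me3 at those times was not analysed here. The 10 calls of Epcam were found at 149 other genes, Muc1 among them.

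The marks at Muc1 and Sox9 overlapped differently. In each library a Sox9 peak lay on the start itself (the 996 bp peak of WT replicate 2 ended 174 bp before it), within the bounds of the 0 h island, which ran from 26209 bp upstream to 6790 bp inside the gene. The Muc1 peaks lay upstream, within islands that ran from 12055 bp upstream to 6944 bp (WT replicate 1) and 15944 bp (0 h) downstream of the start. At Epcam, the 27 kb island of WT replicate 1 ran from 10978 bp upstream to 16021 bp downstream and covered the whole gene.

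Genes elsewhere in the genome with the most similar profile were found from the share of 10 kb either side of the start covered in the 10 H3K4me3 and H3K27me3 libraries. Prom1 was closest to Exoc6b, with a mean absolute difference of 2.02 percentage points, and its 10 calls were shared by 10 other genes. Cftr was closest to Tnfsf13b (1.46 percentage points; 38 other genes with the same calls), Sox9 to Slc16a13 (5.62; 88 genes) and Cd24a to 3425401B19Rik (1.58; 115 genes). Epcam was closest to Aipl1 (1.68, tied with another gene) and Muc1 to Dlgap3 (2.49). Spp1 was closest to Slc2a5 (0.01) and Krt19 to Ano4 (0.068), and 264 genes were tied with Krt7 at 0. A low value says that the same stretches were called, not that the genes are controlled alike.

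The wider bile duct lists give the setting. Among 31 biliary regulators, which include Onecut1, Hes1, Jag1, Notch2 and Yap1, 26 had H3K4me3 in all 4 libraries, beside 55% of all genes. H3K27me3 was found at 11 of 31 in WT replicate 1, 13 in KO, and 14, 8, 5 and 14 at 0, 30, 40 and 96 h. In the same order, 21.5%, 22.2%, 26.6%, 16.7%, 16.2% and 23.8% of all genes were marked. From 0 to 30 h 6 of 31 were lost (11.5% of all genes). Of the starts marked at 0 h, 8 of 14 were still marked at 30 h (56.9% over all genes). Among those lost were the Notch ligand gene Dll4 (fold 2.15 at 0 h), the Notch target Heyl (1.88), Foxj1 (1.74), Tgfb2 (1.73) and Tgfb1 (1.58). From 40 to 96 h 9 of 31 were gained (9.7% of all genes), among them Dll4 (fold 2.86 at 96 h), Tgfb2 (2.59), Notch3 (2.45), Ccn2 (2.41) and Tead1 (2.17). None was lost (1.32%) or gained (0.914%) in KO.

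Among 29 further genes of duct epithelium, 16 had H3K4me3 in all 4 libraries (55% of all genes). H3K27me3 was found at 12 in WT replicate 1, 13 in KO, and 13, 8, 8 and 13 at 0, 30, 40 and 96 h. The shares of all genes were 21.5%, 22.2%, 26.6%, 16.7%, 16.2% and 23.8% in the same order. From 0 to 30 h 6 of 29 were lost (11.5% of all genes). Of the starts marked at 0 h, 7 of 13 were still marked at 30 h (56.9% over all genes). Among those lost were Cldn7, a tight junction protein (fold 2.29 at 0 h), Krt23 (1.92), Bicc1 (1.92), the integrin Itga6 (1.85) and Dcdc2a (1.61). Tspan8 was the 1 gained (1.55% of all genes), with a fold of 1.55 at 30 h. Bicc1 (fold 2.57 at 96 h), Cldn7 (2.36), Dcdc2a (2.29), Itga6 (1.94) and Cd44 (1.66) were the 5 of 29 gained from 40 to 96 h (9.7% of all genes).

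Among 18 transport and signalling genes of duct cells, 10 had H3K4me3 in all 4 libraries (55% of all genes). H3K27me3 was found at 7 in WT replicate 1, 6 in KO, and 8, 3, 4 and 6 at 0, 30, 40 and 96 h. The shares of all genes were 21.5%, 22.2%, 26.6%, 16.7%, 16.2% and 23.8% in the same order. Slc51a, which encodes a subunit of the bile acid exporter OST, was lost in KO (the lower WT fold was 1.56). It was the only loss among the 3 lists of 31, 29 and 18 genes, beside 1.32% of all genes. Slc51a was lost from 0 to 30 h as well (fold 1.77 at 0 h), with Ggt1 (1.70), Adcy8 (1.65), Itpr3 (1.64) and Abcc1 (1.35). That makes 5 of 18 (11.5% of all genes). Of the starts marked at 0 h, 3 of 8 were still marked at 30 h (56.9% over all genes). Ggt1 and Abcc1, 2 of 18, were gained from 40 to 96 h (folds 1.70 and 1.89; 9.7% of all genes), and Slc51a and Itpr3 had no island at 96 h.

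Lists of other liver cell types, except hepatocytes, also had fewer islands at 30 h than at 0 h, as did all genes. The shares of all genes at 0, 30, 40 and 96 h were 26.6%, 16.7%, 16.2% and 23.8%. At 0, 30, 40 and 96 h, islands lay over 5, 2, 3 and 5 of 12 endothelial genes, 9, 5, 5 and 9 of 12 stellate cell and fibroblast genes, 5, 3, 4 and 4 of 10 macrophage genes and 5, 3, 3 and 4 of 10 lymphocyte genes. All 4 lists had their lowest count at 30 h, tied with 40 h for stellate and lymphocyte genes. In KO and WT replicate 1 the counts were 6 and 3 for endothelial, 9 and 8 for stellate, 6 and 4 for macrophage and 6 and 3 for lymphocyte genes. For hepatocyte genes both were 0. The shares of all genes were 22.2% in KO and 21.5% in WT replicate 1.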

How the data were processed

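Groups were taken from the sample titles and descriptions. Per the submitters' processing notes, the tools named are BWA, FastQC 0.11.5, MACS2, Picard, SICER and Trimmomatic, and the builds mm10 and GRCm38.p4. No further version or setting is given in the sources used here. The authors called each library on its own, to judge by 1 list per library. The deposited peak lists (H3K4me3 narrow, H3K9me3 broad) hold the authors' score, fold, −log10 p-value and −log10 q-value of each peak. The deposited H3K27me3 lists are SICER islands (window 1000 bp, gap 4000 bp, per the file names) with raw ChIP and control read counts, a p-value, the authors' fold over scaled control as a ratio, and the false discovery rate as a q-value. Folds are used only within a list or set side by side.

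Regions on the autosomes, X and Y were kept, and islands with a rate of 0.01 or below. Gene bounds, starts and promoter sequences came from RefSeq tables of GRCm38.p6, which is of the same assembly and gives starts for 17492 of the 21887 genes and for 6 of the 9. For 2815 genes the end with more H3K4me3 was used and for 1580 both ends. The H3K4me3 call partly sets the start used in those. The planned results were counts of calls with no test, because the lists hold no reads outside regions. The members and lists were chosen with earlier results of these data known. All 9 genes are named. From each other list up to 5 lost or gained genes per comparison were named, those of highest fold, and as the most alike gene the one over 100 kb away with the smallest mean difference. Named hepatocyte and regulator genes given as examples were picked by name. The work used matplotlib 3.10.9, scipy 1.17.1, pandas 2.3.3 and numpy 2.4.6 under Python 3.11.15. On lists simulated over the 21887 genes, 500 of 500 windows equalled a base by base count, and 200 of 200 simulated H3K4me3 losses in KO, gains in KO, H3K27me3 losses, gains, and gains from 30 to 40 h were each recovered, with 1 false call among the H3K4me3 gains and 0 in the others.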

Additional observations from a re-analysis of the deposited data

How the results depend on the processing

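Of 163 counts of the 9 genes under an alternative, 141 stayed within 1.5 times the reported count and 22 did not. H3K4me3 in every library (3 of 9) became 1 with at least 50% of the window covered, 1 at equal covered length and 5 in the libraries without a round alone, and 3 to 4 on leaving out 1 replicate. Gained H3K4me3 (0, beside 0.114% of all genes) became 1 (Cd24a, beside 2.86%) in round 2 alone. On leaving out 1 replicate it was 0 to 1 (1 without WT replicate 1, beside 2.15%). H3K27me3 lost in KO (1, beside 1.32% of all genes) was 1 without WT replicate 2 (2.34%) and 2 without WT replicate 1 (Sox9 added, 6.36%). Prom1 counted as lost under every alternative run. None of them could give it a call in KO, since the nearest KO island was 167265 bp from its start. Gained (0, beside 0.914%) was 0 to 1 on leaving out a WT replicate (Cftr without WT replicate 2, beside 3.03%). It was 2 (Epcam and Muc1, beside 1.15%) when an island needed a fold of at least 2. That last limit left 2 genes marked at 0 h in place of 8 (5.92% of all genes) and 0 at 30 h in place of 3 (0.105%). At 40 h it left 0 in place of 5 (0.219%), and at 96 h 3 in place of 8 (6.27%). It gave 2 lost from 0 to 30 h (5.87%), 0 gained from 30 to 40 h (0.196%) and 0 with both marks in WT (1.83%). Since almost no start of any gene passed it at 30 and 40 h, those counts say nothing particular to the 9. Loss from 0 to 30 h (5, beside 11.5% of all genes) was 3 (7.46%) with WT replicate 1 in place of 0 h. Gain from 30 to 40 h (2, beside 4.17%) was 1 (Muc1) with both gene ends (4.62%) or 2500 bp either side (4.61%). Both marks in WT (2, beside 5.42%) became 1 (4.56%) with 500 bp either side and 0 (0.964%) with at least 50% of the window covered. On leaving out 1 H3K4me3 replicate it was 2 without WT replicate 1 (5.62%) and 4 without WT replicate 2 (9.33%). Both marks in KO (3, beside 6.49%) became 0 (1.42%) with at least 50% of the window covered. It stayed at 3 on leaving out replicate 1 (7.02%) or replicate 2 (8.81%). Counting any annotated start, an alternative chosen after seeing the data, added H3K4me3 at Spp1 in 2 libraries. No paired analysis was possible because the results are counts of calls from no test. The lower read numbers at 30 and 40 h and the single library per time limit what an absent call can show, which is no absence of the mark.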
